A study of Oryza sativa Japonica Group with 8 samples.

Results

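The 193 loci described here stood high in 3 rice libraries of leaf character and lower in all others, out of 41805 loci in the deposited table. The source is japonica rice (Oryza sativa) grown in a greenhouse, profiled by strand-specific sequencing of polyadenylated RNA in 8 libraries, 1 for each group. The groups are flower buds, flowers taken on the day of flowering, milk grains, mature seeds, and flag leaves and roots from before and from after flowering. The leaf libraries are called early leaf and late leaf below, the root library from before flowering is called early root, and the library labelled as roots from after flowering is called R2, its title. The leaf and root samples taken before flowering pooled stages from panicle initiation to the day before flowering, and those taken after it pooled later stages. No genotype or treatment other than organ and stage is given in the labels, and with 1 library in each group no difference below has a replicate check or a test.

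Members were chosen by their measured FPKM in all 8 libraries. A member was at least 300 bp long and reached at least 30 FPKM in early leaf, late leaf and R2. FPKM is a count of fragments scaled by transcript length and by the mapped total. Lengths of loci in bp are spans from start to end position, with any introns included. The lowest of these 3 values, plus 1, also had to be at least 4 times the value plus 1 of each of the other 5 libraries. Loci that start between positions 800000 and 1009999 of chromosome 1 or between 13800000 and 14399999 of chromosome 9 were left out, which removed 1 otherwise qualifying locus. The height of the members in leaves over the other organs is therefore a description of that choice. The members are 0.508% of the 38009 loci of at least 300 bp outside these regions.

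The flag leaf, the last leaf to form below the panicle, is a main source of the sugars that fill the grain. Leaf cells devote much of their messenger RNA to nuclear genes for photosynthesis, such as those for light-harvesting proteins and carbon-fixing enzymes. Roots and ripe seeds make little of these messages, whereas young floral organs and developing grains hold some green tissue. The file pairs its identifiers with no gene names, and 0 of them were found in the reference table of 39387 rice genes, so no member is given a name or a role. Exons, introns and untranslated regions are not annotated in the files used, and the leaf label could not be checked against named marker genes. Positions below refer to Release 7 of the MSU rice annotation, per the file header.

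R2 goes against its label. Over 37931 loci of at least 300 bp, without the members, the Spearman correlation of R2 across loci, which are no replicates, was 0.97 with late leaf, 0.93 with early leaf and 0.68 with early root. A set of 1278 loci was chosen at 30 FPKM or more in early root. On the FPKM + 1 scale, early root was at least 4-fold above every other library but R2 at these loci. Their median was 149 FPKM in early root and 2.43 FPKM in R2. With that library left out of the rule, which can only widen the selection, 204 loci qualified. Sequencing depth, read from the smallest steps between values at loci of 101 bp, was lowest in mature seeds and 7.68 times as high in R2, with the other 6 libraries between 1.64 and 2.82 times.

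The leaf loci spanned 3 orders of magnitude. By the lowest of the 3 leaf-like values, 78 members lay between 30 and 100 FPKM, 94 between 100 and 1000 FPKM, and 21 at 1000 FPKM or above. In early leaf the lowest member stood at 31.5 FPKM, the median at 190 FPKM and the highest at 42913 FPKM. In late leaf these values were 30.7, 234 and 45050 FPKM, and in R2 30.2, 233 and 21747 FPKM. The 193 loci held 8.41%, 9.83% and 9.11% of the FPKM sum over all loci of at least 300 bp in these 3 libraries. The 10 highest members alone supplied 63.7% of the members' sum in early leaf and 51.8% in R2.

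**Figure D1:**
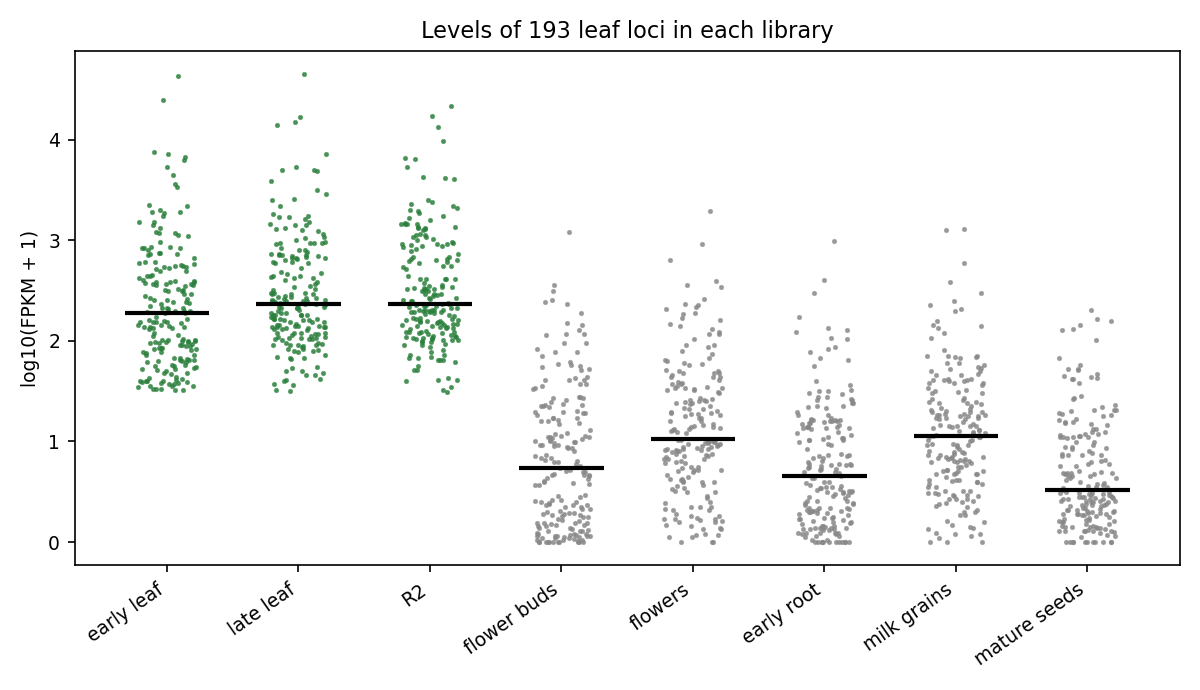
Level of each of the 193 leaf loci, as log10(FPKM + 1), in the 3 leaf-like libraries (green) and the 5 others (grey), with a black bar at the median. The medians are 190, 234 and 233 FPKM in the leaf-like libraries and lie between 2.32 and 10.3 FPKM in the others, a separation that the selection fixed.

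P_XLOC_018847 (chromosome 3, 14567424 to 14573315, plus strand, 5892 bp) was the most abundant member. Its level was 42913 FPKM in early leaf, 45050 FPKM in late leaf and 21747 FPKM in R2. Elsewhere it stood at 1.22 FPKM in flower buds, 16.2 in flowers, 0.904 in early root, 18.8 in milk grains and 1.26 in mature seeds. The leaf-like libraries thus lay far above the others at this locus, and its margin over the highest other library was 1097-fold on the FPKM + 1 scale.

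M_XLOC_001965 (chromosome 1, 11202595 to 11203335, minus strand, 741 bp) came next in abundance. It stood at 25063, 14175 and 13401 FPKM in early leaf, late leaf and R2. Unlike the first locus it was also abundant outside leaves, at 1946 FPKM in flowers, 1203 in flower buds and 1303 in milk grains, but at 23.0 FPKM in early root and 163 in mature seeds. Its margin was 6.88-fold.

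On the FPKM + 1 scale, the margin over the highest other library had a median of 6.42-fold across the members. It was under 5-fold for 47 members, at least 10-fold for 60 and at least 16-fold for 32. It was at least 100-fold for 3, namely P_XLOC_018847, M_XLOC_005000 and M_XLOC_039883, of which the last was picked out after its values were seen. At the latter 2 the other libraries were at 0 or close to it, so that their margins depend on the added 1 FPKM and the order of P_XLOC_018847 and M_XLOC_005000 is not determined.

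M_XLOC_005000 (chromosome 1, 42961635 to 42962009, minus strand, 375 bp) was listed at 0 in all 5 other libraries. Its leaf-like levels were 848 FPKM before flowering, 1521 FPKM after flowering and 2277 FPKM in R2. It was the only member listed at 0 in all of them. Values under 1 FPKM in all 5 were found at 4 members, namely M_XLOC_005000, M_XLOC_014446, M_XLOC_034465 and M_XLOC_039883, named here after their values were seen. M_XLOC_039883 (chromosome 9, 10686210 to 10688403, minus strand) measured 253, 137 and 167 FPKM in the leaf-like libraries and 0.144 FPKM or less elsewhere. M_XLOC_034465 (chromosome 7, 18102484 to 18103715, minus strand) measured 32.3, 217 and 101 FPKM there and 0.467 FPKM or less elsewhere.

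At the 4-fold limit, the members just inside were P_XLOC_006916 at 4.01-fold and P_XLOC_015286 at 4.02-fold. The loci just outside were M_XLOC_029578 at 3.98-fold and P_XLOC_004236 at 3.94-fold. P_XLOC_004236 (chromosome 1, 42460555 to 42462334, plus strand) held 1346 FPKM or more in the leaf-like libraries and missed the limit through early root, at 341 FPKM, with 6.21 FPKM or less in the remaining 4 libraries. At the limit of 30 FPKM, P_XLOC_018499 was just inside at 30.2 FPKM and P_XLOC_018793 at 30.7 FPKM, and P_XLOC_003273 and M_XLOC_016359 were just outside at 29.9 and 29.2 FPKM.

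**Figure D2:**
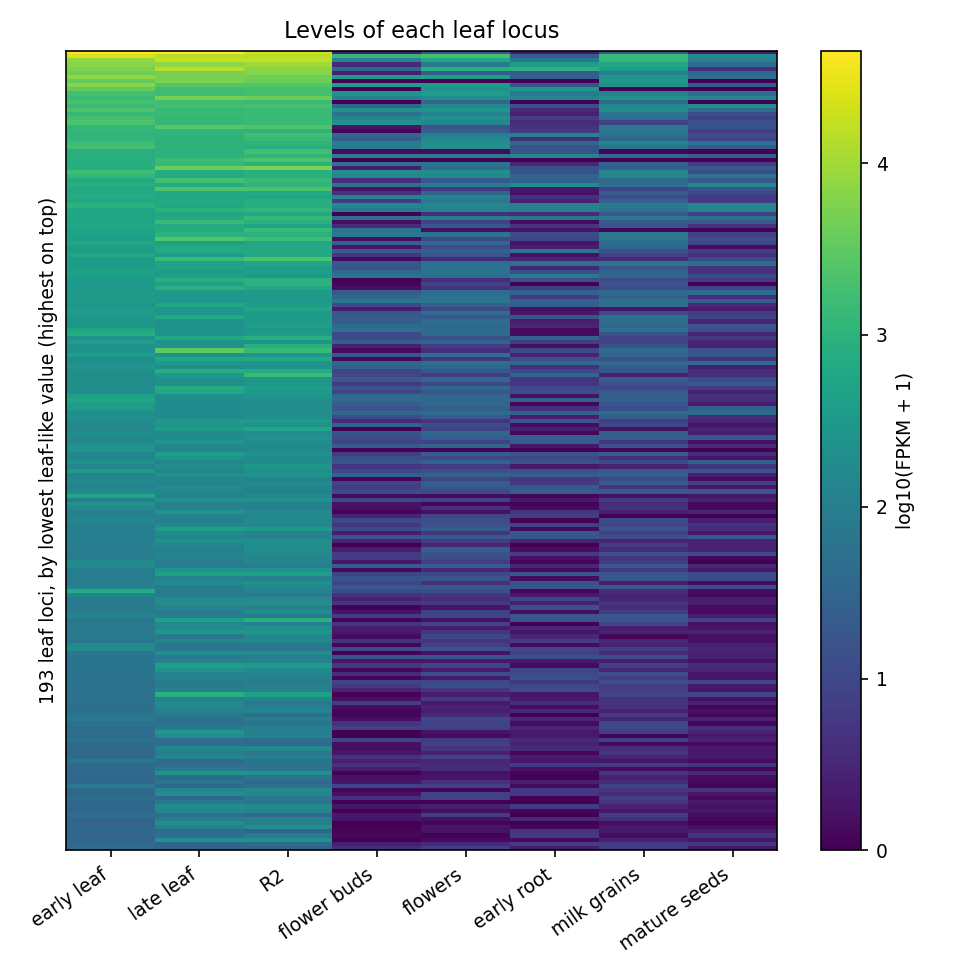
Level of each leaf locus in each library, as log10(FPKM + 1) on a colour scale, with 1 line per locus ordered by its lowest leaf-like value. The 3 columns on the left are all high, which the selection fixed, while flowers and milk grains keep more colour than early root and mature seeds.

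The 3 leaf-like libraries were then compared with each other, which the selection bounds only from below. Member levels differed more among them than did the levels of the other 6560 loci of at least 300 bp that also reached 30 FPKM in all 3, called other abundant loci below. The highest of the 3 values was a median of 1.99-fold above the lowest for members and 1.49-fold for other abundant loci, on the FPKM + 1 scale. It was under 2-fold for 50.3% of members and 76.7% of other abundant loci, and at least 4-fold for 11.4% and 4.19%. The highest value was in R2 for 75 members, in late leaf for 65 and in early leaf for 53, a split not counted for other abundant loci.

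Late leaf was set against early leaf to ask how leaf transcripts differ between stages before and after flowering. Late leaf was at least 4-fold higher at 16 of 193 members (8.29%), at least 4-fold lower at 2 (1.04%) and neither at 175. The background was 4.89% higher and 3.54% lower over all 29611 loci at 1 FPKM or more in either library, and 1.92% higher and 1.37% lower over other abundant loci. The median log2 ratio was 0.38 for members, 0.16 for other abundant loci and 0.05 for all loci compared. Of the 16 members, 13 were under 100 FPKM in early leaf. Among the 115 members at 100 FPKM or more in all 3 libraries, 3 (2.61%) were higher, against 2.2% of other abundant loci at that level, and 1 (0.870%), M_XLOC_014446, was lower, against 1.67%. With a 2-fold limit, 30.1% of all members were higher and 7.77% lower, against 9.41% and 9.01% of other abundant loci. At 100 FPKM or more these shares were 21.7% and 9.57%, against 9.62% and 11.7%. The median log2 ratio at that level was 0.10 for members and 0.14 for other abundant loci, the reverse of the order over all members.

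P_XLOC_009994 (chromosome 11, 28142192 to 28180374, plus strand, 38183 bp) measured 55.1 FPKM before and 842 FPKM after flowering in leaves, and 443 FPKM in R2. Its log2 ratio in leaves was 3.91. Outside these libraries it reached at most 8.89 FPKM, in mature seeds. M_XLOC_039620 (chromosome 9, 7772915 to 7777015, minus strand) measured 223 FPKM before and 3137 FPKM after flowering, a log2 ratio of 3.81, and 1294 FPKM in R2. Of the leaf-like libraries, early leaf was the lowest and late leaf the highest at both loci. The other members at 100 FPKM or more with late leaf at least 4-fold higher, named after their values were seen, were P_XLOC_030876, at 801 and 3922 FPKM, and P_XLOC_011061, at 444 and 2602 FPKM.

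The opposite direction was found at P_XLOC_034916 and M_XLOC_014446. P_XLOC_034916 (chromosome 7, 28683925 to 28686640, plus strand) measured 737 FPKM before flowering, 87.0 after flowering and 120 in R2, with a log2 ratio of -3.07 in leaves. M_XLOC_014446 (chromosome 2, 5276379 to 5282626, minus strand) measured 577, 110 and 169 FPKM, with a log2 ratio of -2.38. At both loci early leaf stood apart and the later libraries lay close together.

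Set against late leaf, R2 was at least 4-fold higher at 1 of 193 members (0.518%) and at least 4-fold lower at 0. The background was 1.51% higher and 0.736% lower over all 29089 loci compared, and 0.168% and 0.213% over other abundant loci. At 100 FPKM or more in all 3 libraries, 0.870% of members were higher, against 0.262% of other abundant loci, and 0 were lower, against 0.262%. With a 2-fold limit 4.15% of members were higher and 3.11% lower, against 1.3% and 1.97% of other abundant loci. The member that was higher was P_XLOC_024187 (chromosome 4, 28108757 to 28113606, plus strand), at 1460 FPKM in R2, 322 FPKM in late leaf and 196 FPKM in early leaf. Early root held 31.7 FPKM at this locus, its highest value outside the leaf-like libraries. P_XLOC_022307 (chromosome 4, 8445190 to 8449205, plus strand) followed at 888, 255 and 236 FPKM, with 0.614 FPKM in early root. The smallest ratio belonged to M_XLOC_037472 (chromosome 8, 16252515 to 16259596, minus strand), at 102 FPKM in R2 and 292 FPKM in late leaf, followed by M_XLOC_039620, described above.

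Set against early leaf, the same library was at least 4-fold higher at 15 members (7.77%) and lower at 1 (0.518%), which was P_XLOC_034916. The background was 4.33% and 2.89% over all 30009 loci compared, and 1.49% and 1.19% over other abundant loci. At 100 FPKM or more in all 3 libraries, 4 of 115 members (3.48%) were higher, against 1.67% of other abundant loci at that level, and 0 were lower, against 1.26%. With a 2-fold limit 30.6% of all members were higher and 4.15% lower, against 7.73% and 8.48% of other abundant loci. Higher at 100 FPKM or more were P_XLOC_024187, P_XLOC_030876, M_XLOC_039620 and M_XLOC_031637, the last named after its values were seen. M_XLOC_005824 (chromosome 10, 5538022 to 5544580, minus strand) had the largest ratio, at 911 FPKM against 76.7 FPKM, with 458 FPKM in late leaf. This comparison and that of the leaf stages share the library of early leaf. That library lay at least 4-fold under both later libraries at 11 members (5.70%), against 1.01% of other abundant loci.

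On the log2 scale R2 was nearer to late leaf than to early leaf at 143 members (74.1%), and at 66.8% of other abundant loci. Member levels in R2 were above those in early leaf at 133 loci and above those in late leaf at 113, counts not taken for other abundant loci. The median log2 ratio of R2 over early leaf was 0.52 for members and 0.07 for other abundant loci. Over late leaf it was 0.13 and -0.07.

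**Figure D3:**
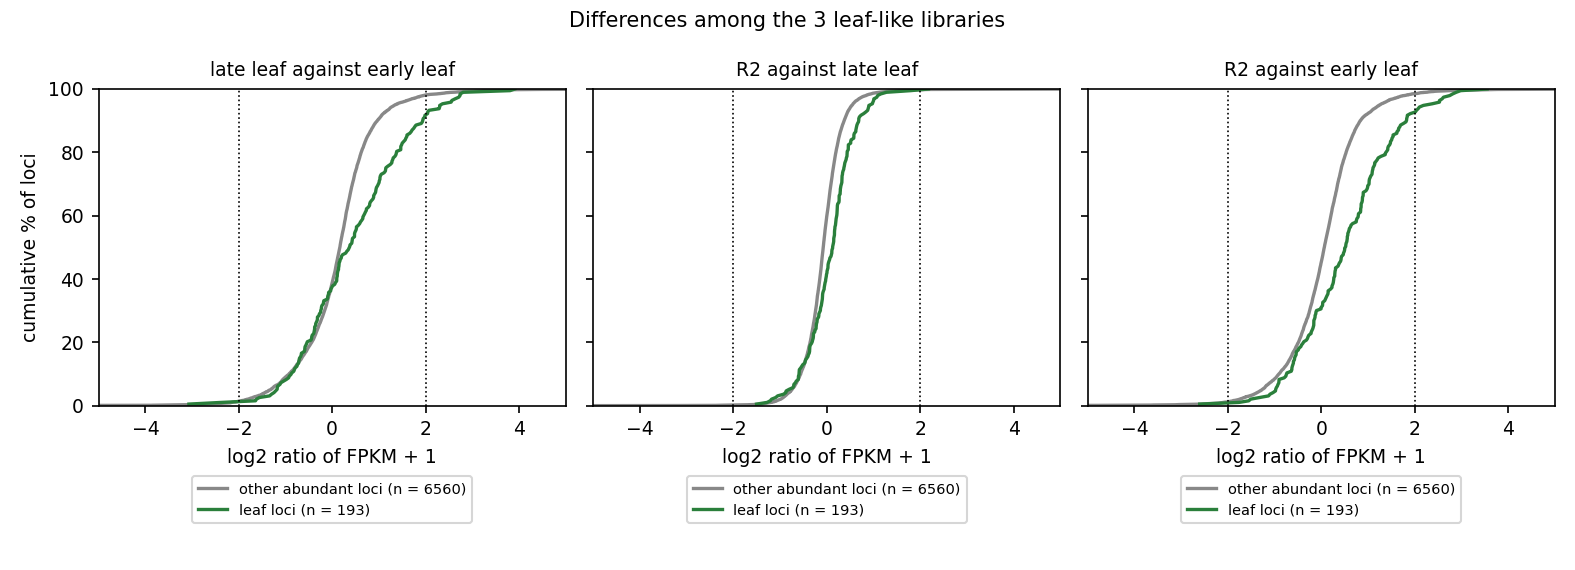
Cumulative share of loci (%) by log2 ratio of FPKM + 1 for the 3 comparisons among the leaf-like libraries, for the 193 leaf loci (green) and 6560 other abundant loci (grey), with dotted lines at 4-fold. At the median the green curves lie to the right of the grey ones in all 3 comparisons. The green and grey medians are 0.38 and 0.16 for late against early leaf, and 0.52 and 0.07 for R2 against early leaf. For R2 against late leaf they are 0.13 and -0.07. At 100 FPKM or more in all 3 libraries the members' median for late against early leaf, 0.10, is below that of other abundant loci, 0.14.

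Outside the leaf-like libraries the members were not equally low in every organ, although the selection capped each value plus 1 at the lowest leaf-like value plus 1 divided by 4. In bulk tissue, fewer leaf-type cells and less RNA per cell cannot be told apart. The median member kept 8.67% of its lowest leaf-like level in flowers, 6.98% in milk grains, 4.07% in flower buds, 2.01% in early root and 1.67% in mature seeds. Median levels were 9.50 FPKM in flowers, 10.3 in milk grains, 4.42 in flower buds, 3.55 in early root and 2.32 in mature seeds. Among other abundant loci the medians in these 5 libraries lay between 52.3 and 57.3 FPKM. With each library rescaled to the same FPKM sum, the share kept was 14.6% in flowers, 6.51% in flower buds and 1.10% in mature seeds, and flowers and milk grains were still the highest 2 of the 5.

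Flowers held the highest other value for 76 members, milk grains for 53, early root for 33, flower buds for 20 and mature seeds for 11. With equal FPKM sums the share in early root went from 17.1% to 9.84%, below that of flower buds at 13.0%, and the share in mature seeds from 5.70% to 1.04%. At least 10% of the lowest leaf-like level remained in flowers at 88 members, in milk grains at 68, in early root at 49, in flower buds at 44 and in mature seeds at 26. Under 1% remained in early root at 76 members, in mature seeds at 64, in flower buds at 60, in flowers at 20 and in milk grains at 17. With equal sums, in a check added after seeing the data, 116 members were at 10% or more in flowers and 79 each in milk grains and flower buds. Early root had 42 such members and mature seeds 12. Under 1% were 89 members in mature seeds and 81 in early root, so part of the order of the libraries depends on the scaling. Listed at 0 were 12 members in early root, 11 in mature seeds, 10 in flower buds, and 3 each in flowers and milk grains.

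Flowers were compared with flower buds, a contrast in which the selection limits both libraries alike. Of 170 members at 1 FPKM or more in either library, 34 (20%) were at least 4-fold higher in flowers, 1 (0.588%) was at least 4-fold lower and 135 were neither. The background over 32324 loci was 3.08% higher and 3.61% lower. The median log2 ratio was 0.84 for members and -0.06 for all loci compared, and flowers were above flower buds at 158 of all 193 members. Among members at 5 FPKM or more in either library, 31 of 138 were higher and 1 was lower, against 3.73% and 4.41% of all loci at that level. With a 2-fold limit 45.3% of members were higher and 2.35% lower, against 9.75% and 12.6% of all loci. The 34 loci had medians of 0.700 FPKM in flower buds and 13.0 FPKM in flowers, beside 539 FPKM in early leaf, 689 FPKM in late leaf and 2.77 FPKM in early root.

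Among members of at least 500 bp the largest ratios were at P_XLOC_008134 and M_XLOC_012618. P_XLOC_008134 (chromosome 11, 6648986 to 6650514, plus strand, 1529 bp) measured 35.9 FPKM in flower buds and 912 FPKM in flowers, a log2 ratio of 4.63. In the leaf-like libraries it stood at 5389 FPKM before flowering, 14919 after flowering and 6586 in R2, and in early root at 979 FPKM. M_XLOC_012618 (chromosome 12, 20057998 to 20059610, minus strand) measured 2.73 and 86.2 FPKM in flower buds and flowers, with 6802, 7275 and 9840 FPKM in the leaf-like libraries and 602 FPKM in milk grains. Flower buds were the lowest library at M_XLOC_012618, whereas at P_XLOC_008134 mature seeds were far lower, at 3.38 FPKM. At both loci flowers were still far below leaves.

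P_XLOC_031370 (chromosome 6, 27962041 to 27962691, plus strand, 651 bp) was the member lower in flowers, with 0.471 FPKM there and 61.1 FPKM in flower buds. It was at 0.771 FPKM or less in early root, milk grains and mature seeds, and at 495, 731 and 1368 FPKM in the leaf-like libraries. Flower buds were thus the only other library in which this locus exceeded 1 FPKM. M_XLOC_010152 (chromosome 11, 24602494 to 24604682, minus strand) had the next smallest ratio, at 6.41 and 1.07 FPKM.

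Mature seeds were compared with milk grains, which are immature grains with fluid contents. Of 181 members at 1 FPKM or more in either library, 60 (33.1%) were at least 4-fold lower in mature seeds and 0 were at least 4-fold higher. The background over 32377 loci was 17.4% lower and 11.5% higher. The median log2 ratio was -1.27 for members and -0.16 for all loci compared, and milk grains were above mature seeds at 161 of all 193 members. At 5 FPKM or more in either library 58 of 132 members were lower and 0 were higher, against 20.8% and 14.2% of all loci at that level. With a 2-fold limit 60.8% of members were lower and 3.31% higher, against 34.4% and 26.3% of all loci. Mature seeds were the shallowest library and milk grains were 1.94 times as deep, and the part of depth in the lowest values was not tested. The 60 loci had medians of 24.1 FPKM in milk grains and 2.06 FPKM in mature seeds.

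P_XLOC_008134, described above, had the smallest ratio among members of at least 500 bp, with 381 FPKM in milk grains and 3.38 FPKM in mature seeds, a log2 ratio of -6.45. M_XLOC_039382 (chromosome 9, 5327448 to 5330178, minus strand) measured 35.3 and 0.418 FPKM, with 405, 640 and 630 FPKM in the leaf-like libraries. The largest ratios were at M_XLOC_014908 and P_XLOC_001429. M_XLOC_014908 (chromosome 2, 10093174 to 10094392, minus strand) measured 0.411 FPKM in milk grains and 4.07 in mature seeds, and P_XLOC_001429 (chromosome 1, 14446910 to 14453503, plus strand) 44.7 and 157 FPKM. The log2 ratio of M_XLOC_014908 was 1.84, under the 4-fold limit, and 3.03, past it, with a pseudocount of 0.1. P_XLOC_001429 was also at 171 FPKM in early root and 1124 FPKM in R2.

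**Figure D4:**
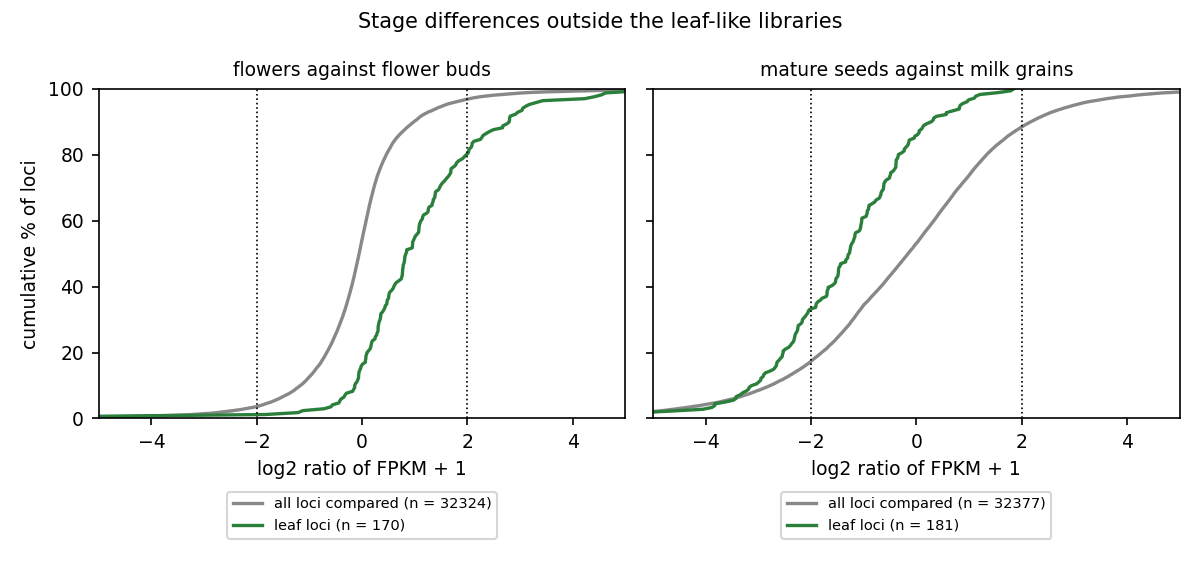
Cumulative share of loci (%) by log2 ratio of FPKM + 1 for flowers against flower buds and for mature seeds against milk grains, for leaf loci (green) and all loci compared (grey), with dotted lines at 4-fold. The green curve is shifted to the right in flowers, with a median of 0.84, and to the left in mature seeds, with a median of -1.27.

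The members lay on all 12 chromosomes, with 102 on the plus and 91 on the minus strand. Relative to loci of at least 300 bp they were sparsest on chromosome 5, with 5 members or 1.67 per 1000 loci, and on chromosome 3, with 11 or 2.47 per 1000. They were densest on chromosome 10, with 16 members or 7.51 per 1000, and on chromosomes 8 and 7, with 7.34 and 7.23 per 1000. Overlapping members count separately here. On chromosome 10, P_XLOC_005263 and P_XLOC_005265 lie within P_XLOC_005262, so the order of these close densities is not settled. Chromosome 3 held more loci at 30 FPKM or more in all leaf-like libraries than any other, 973, of which 1.13% were members, against 4.72% of 339 such loci on chromosome 10.

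Member loci ranged from 319 to 236827 bp in length, taken as the span from start to end position. Their median was 3431 bp, against 3915 bp for other abundant loci, and 19 members (9.84%) exceeded 10 kb, against 8.86%. The 21 members at 1000 FPKM or more in all leaf-like libraries had a median length of 1613 bp, against 3645 bp for the 78 members under 100 FPKM. Lengths over 30 kb were found at P_XLOC_009994, P_XLOC_011902, P_XLOC_020427, P_XLOC_022984 and M_XLOC_039980, listed after their lengths were seen. The longest was P_XLOC_011902 (chromosome 12, 16061282 to 16298108, plus strand), at 165, 136 and 110 FPKM in the leaf-like libraries and 20.6 FPKM or less elsewhere.

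Another member lay within 50 kb of 44 members, which formed 20 groups, 18 of them pairs. The groups were on 1 strand in 12 cases and on both strands in 8. Among other abundant loci, which are far more numerous, 89.3% had another within that distance. Some neighbours overlapped: 16 members overlapped another member on the same strand, and merging these left 184 separate regions.

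Both groups of 4 hold such overlaps. On chromosome 10 (2249225 to 2262626) P_XLOC_005262 spans P_XLOC_005263 and P_XLOC_005265 on the plus strand, and M_XLOC_005544 lies beside them on the minus strand. P_XLOC_005265 was the most abundant, at 853, 942 and 1744 FPKM in early leaf, late leaf and R2. P_XLOC_005262 was at 161, 329 and 345 FPKM, M_XLOC_005544 at 67.4, 129 and 145 FPKM, and P_XLOC_005263 at 37.0, 40.1 and 63.0 FPKM. All 4 were at 15.6 FPKM or less outside these libraries, and all 4 were highest in R2.

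On chromosome 11 (4097420 to 4154888) M_XLOC_008326 spans M_XLOC_008329 and M_XLOC_008330 on the minus strand. M_XLOC_008326 was at 1193, 1167 and 1068 FPKM in the leaf-like libraries in the same order, M_XLOC_008329 at 554, 598 and 657 FPKM, and M_XLOC_008330 at 1998, 1704 and 1475 FPKM. Each of these 3 differed by less than 2-fold among the leaf-like libraries. Their plus-strand neighbour P_XLOC_007927 differed, at 99.7 FPKM in early leaf and 386 and 316 FPKM in the later libraries.

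Loci on the other strand overlapped 81 members (42.0%), against 21.7% of other abundant loci. With an overlap of at least 100 bp the shares were 38.9% and 17.4%. Overlap by a locus on the same strand was also more frequent, at 28.0% of members and 19.9% of other abundant loci. The sets differ in level too, with medians of 190 and 79.1 FPKM in early leaf. Of the partners, 89 were at least 300 bp long, and 2 of these, M_XLOC_005000 and P_XLOC_004291, are members whose pattern the selection fixed. The other 87 had a low median level, at 1.27 FPKM in early leaf, 1.78 in late leaf and 2.07 in R2. It was 1.31 FPKM in flower buds, 0.776 in flowers, 0.506 in milk grains, 0.455 in early root and 0 in mature seeds. Of the 87, 51 (58.6%) had their highest value in a leaf-like library, 22 of them in R2, the deepest. That share was 37.2% among 1601 partners of other abundant loci. Over all 89 pairs, a partner stood in late leaf at a median of 0.845% of its member's level. Whether reads assigned to the wrong strand contribute was not tested.

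**Figure D5:**
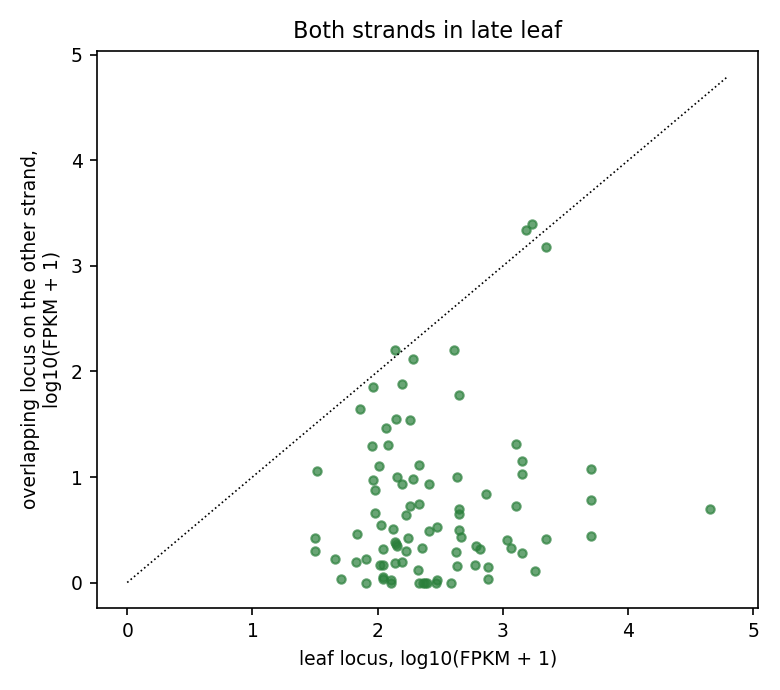
Level in late leaf, as log10(FPKM + 1), of leaf loci (horizontal axis) and of the overlapping loci of at least 300 bp on the other strand (vertical axis), with a dotted line at equal levels and 1 point for each of 89 pairs, a pair of leaf loci being drawn in both orders. Most partners lie far below the line, and 3 pairs lie above it.

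Some partners were abundant themselves. P_XLOC_024687 (chromosome 4, 33161540 to 33164911, plus strand) covers M_XLOC_025503, a member of 324 bp on the minus strand. The partner was at 2906, 2517 and 1283 FPKM in early leaf, late leaf and R2, and the member at 3391, 1717 and 1955 FPKM. In early root the partner was at 1034 FPKM and the member at 298 FPKM. The member was listed at 0 in flower buds, milk grains and mature seeds, where the partner stood at 101, 118 and 29.4 FPKM.

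M_XLOC_005000, listed at 0 outside the leaf-like libraries, lies within P_XLOC_004291 (42959973 to 42967127, plus strand), which is a member too. P_XLOC_004291 was at 674 FPKM in early leaf, 2211 after flowering and 2078 in R2, and at 15.3 FPKM or less elsewhere. Both loci thus had leaf-like levels of the same order, on opposite strands. Other minus-strand loci that overlap P_XLOC_004291 were far lower, M_XLOC_005003 at 16.2 FPKM or less and M_XLOC_005002 at 8.92 FPKM or less in every library. Among the 87 partners that are not members, the lowest leaf-like value plus 1 was at least 4 times the highest other value plus 1 at 3 (3.45%), against 0.464% of 37931 loci of at least 300 bp that are not members. These 3, named after their values were seen, were P_XLOC_000477, M_XLOC_032976 and M_XLOC_008472, partners of M_XLOC_001276, P_XLOC_032286 and P_XLOC_008055.

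Of the 89 partners of at least 300 bp, 36 were highest in a library that is not leaf-like, among them the following. M_XLOC_017187 (chromosome 2, 33475931 to 33484018, minus strand) overlaps the end of P_XLOC_016445 by 97 bp and was at 283 FPKM in early root and 276 FPKM in early leaf, against 70.0 and 85.8 FPKM in the later leaf-like libraries. P_XLOC_016445 was at 9.29 FPKM in early root and 56.4, 90.8 and 106 FPKM in the leaf-like libraries. P_XLOC_037041 (chromosome 8, 17843998 to 17857834, plus strand) was highest in milk grains, at 140 FPKM, where its partner M_XLOC_037609 stood at 16.3 FPKM. In early leaf the order was the other way, at 45.0 FPKM for P_XLOC_037041 and 389 FPKM for M_XLOC_037609.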

How the data were processed

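Values were used as deposited: 1 table of FPKM made by the authors, with 1 column for each of the 8 libraries, and TopHat, Cufflinks and Cuffdiff named in the submitters' processing notes. Versions, settings and the treatment of reads that match several places are not stated in these sources, so members with near-identical copies are uncertain. Read totals are unknown. At loci of 101 bp, 212 of 212 values under 60 steps were whole multiples, to within 0.03, of the step of their library and strand, which gives relative depth.

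Ratios are log2 of (FPKM + 1) over (FPKM + 1), which understates changes at low values. Loci at 1 FPKM or more in either library were compared, and those at least 4-fold apart were counted, in 5 comparisons. With 1 library in each group no test was run. Counting and selection were tested on simulated data. Python 3.11.15 and pandas 2.3.3 were used.

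The members, lists and settings were chosen with earlier results of these data known. Loci named in a comparison are the 2 largest and 2 smallest ratios among members of at least 500 bp. Others are the 2 most abundant members, the 2 with the largest margin and the 2 loci on each side of each limit. The 2 largest neighbour groups and the 2 highest partners were also named. So were the 2 members with the highest partners among those that peak outside the leaf-like libraries. Other settings tried were a pseudocount of 0.1, other filters and limits, and rescaling to equal sums or by median ratios. Members chosen without R2, overlapping members counted once, rescaled counts of members kept at 10% or under 1%, and partners that are not members were added after seeing the data.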

Additional observations from a re-analysis of the deposited data

Results flagged for a closer look

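After flowering 2 members moved in opposite directions in the leaf pair and in the pair labelled roots. P_XLOC_034916 had a log2 ratio of -3.07 in leaves and 6.61 in the root pair. M_XLOC_014446 had -2.38 and 7.15. The difference was not tested, since each label has 1 library. The positive direction in the root pair was fixed by the selection, and the later of them goes against its label.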

How the results depend on the processing

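No paired analysis was possible because each group has 1 library. The number of members was 32 with a 16-fold limit and 115 with a minimum of 100 FPKM, and it lay between 135 (equal sums) and 289 (a minimum of 10 FPKM) under the other settings. With a 2-fold limit the shares of members higher and lower were 30.1% and 7.77% for late against early leaf, 4.15% and 3.11% for R2 against late leaf, 30.6% and 4.15% for it against early leaf, 45.3% and 2.35% for flowers against flower buds, and 3.31% and 60.8% for mature seeds against milk grains. Among members at 100 FPKM or more, 2.61% were higher in late than in early leaf, 0.870% were higher in R2 than in late leaf, 3.48% were higher and 0% lower in it than in early leaf, and 0.926% were lower in flowers than in flower buds. For members chosen without R2, 1.47% were lower in it than in late leaf and 1.96% lower than in early leaf. With a pseudocount of 0.1, 1.18% were lower in flowers and 1.10% higher in mature seeds. With equal sums, 1.11% were lower in flowers, the median shares kept were 14.6% for flowers, 6.51% for flower buds and 1.10% for mature seeds, and the highest other value lay in early root for 9.84% of members and in mature seeds for 1.04%. The cause of these shifts was not tested, apart from limits that by construction count more or fewer loci. At the 4-fold limit the share higher in flowers stayed between 17.6% and 30%, and the share lower in mature seeds between 31.1% and 43.9%. Depth limits the lowest values most in mature seeds.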
